A study of Mus musculus with 4 samples.

Results

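The nuclear-encoded genes of respiratory complexes II, III, IV and V and of cytochrome c were examined in Dalton's lymphoma ascites (DLA) cells, a transplantable mouse tumour that grows as a suspension in the peritoneal cavity. Members were all probe sets of the expression array whose annotated gene symbol began with Sdha, Sdhb, Sdhc, Sdhd, Uqcr, Cyc1, Cycs, Atp5 or Cox4 to Cox8. This gave 78 probe sets of 53 genes, out of 23410 probe sets and 21335 symbols with an annotation. By complex, there were 9 probe sets of 8 genes for complex II, 12 of 9 for complex III, 3 of 1 for cytochrome c, 24 of 18 for complex IV and 30 of 17 for complex V.

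The study compared 2 arrays of control cells with 2 arrays of irradiated cells. All mice were male Swiss albino animals aged 4 to 5 months that carried DLA cells implanted in the peritoneum. Mice of the irradiated group received 2 Gy of electrons to the whole body on day 8, and their cells were collected 48 h later, while mice of the control group were not irradiated. Each group holds biological replicates 1 and 2 by its labels, and whether a replicate was 1 mouse or a pool is not given. Because host and tumour were irradiated together, the cells collected include whatever host cells were present in the ascites.

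Complex II, succinate dehydrogenase, passes electrons from succinate to ubiquinone and is also an enzyme of the tricarboxylic acid cycle. Complex III, the cytochrome bc1 complex, hands them to cytochrome c, a small soluble carrier that also takes part in apoptosis once released from mitochondria. Complex IV, cytochrome c oxidase, reduces oxygen, and complex V, ATP synthase, uses the proton gradient built by the chain to make ATP. Tumour cells differ widely in how far they rely on this chain rather than on glycolysis, and several members have isoforms used in heart, muscle or testis.

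Values are log2 intensities as deposited, and array medians over all probe sets lay between 6.43 and 6.46. The 2 irradiated arrays differed from each other more than the 2 control arrays did, with an SD of the replicate difference of 0.428 against 0.168. Defining lymphoid genes were dim: 9 of 9 measured T-cell marker probe sets and 5 of 5 B-cell marker probe sets lay below the median of annotated probe sets, 6.71, on every array. Across all annotated probe sets, 0.0256% (6 of 23410) passed a limma adjusted p of 0.05. At an unadjusted limma p under 0.05, 4.82% were higher and 4.64% lower. Erythroid marker probe sets had a median difference of -3.22, irradiated minus control, with 6 of 7 lower at an unadjusted p under 0.05. The globin probe sets, at -4.825 to -3.22, set this median. The other erythroid markers differed less, with Alas2 at -0.695, Klf1 at -0.32 and Slc4a1 at 0.195. The summed log2 level of the erythroid list was 59.53 and 59.95 on the control arrays and 43.04 and 42.72 on the irradiated arrays. Neutrophil marker probe sets had a median of -0.565, with 8 of 10 lower and 2 higher, of which 5 and 1 at an unadjusted p under 0.05, and summed levels of 63.76 and 65.32 against 61.17 and 60.66. Proliferation marker probe sets had a median of 0.63, with 10 of 10 higher, 7 at an unadjusted p under 0.05, and summed levels of 86.26 and 86.13 against 93.26 and 90.88. With irradiated replicate 1 left out the proliferation median was 0.34, and with replicate 2 left out 0.862. No marker had a log2 value of 0 on any array. The part of these marker lists in the results on the respiratory genes was not tested.

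Respiratory chain genes were modestly higher on the irradiated arrays as a group, and no single member passed the adjusted threshold. The median difference of the 78 probe sets was 0.13 on the log2 scale, against -0.025 over all annotated probe sets, and differences ran from -0.42 to 0.61. In all, 56 probe sets (71.8%) were higher, against 44.5% of all annotated probe sets, and 21 were lower. The lowest limma adjusted p among the members was 0.405. At an unadjusted limma p under 0.05, 16 members (20.5%) were higher, against 4.82% of all annotated probe sets, and 1 (1.28%) was lower, against 4.64%. For 41 members the irradiated values were both higher than either control value, as 17.9% of all annotated probe sets were, and for 9 both were lower, as 23.6% were. For the other 28 members the groups overlapped. Among the 11705 annotated probe sets at or above the median, a set added after the values were seen because most members lay there, 7.12% were higher at an unadjusted p under 0.05.

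These counts depended on single arrays and on genes with several probe sets. The counts moved when single arrays were left out, and are not given for those fits, since no share over all annotated probe sets stands beside them. The median member difference was 0.125 and 0.11 without control replicates 1 and 2. It was 0.15 and 0.115 without irradiated replicates 1 and 2. Over all annotated probe sets the medians were -0.025, -0.02, -0.03 and -0.015 in the same order. In a fit with 1 probe set for each gene, 7 of 52 genes (13.5%) were higher at an unadjusted p under 0.05, against 5.21% of 19938 genes, and 2 (3.85%) were lower, against 5.1%. The 7 were Cox7b2, Cyc1, Atp5l, Atp5pb, Cox6a1, Uqcr11 and Atp5md, and the 2 were Sdhaf1 and Sdhc. Relative to the control mean, the median member probe set stood at 0.115 on irradiated replicate 1 and 0.15 on irradiated replicate 2. Over the 52 genes with 1 probe set each, these medians were 0.115 and 0.052. In cells collected as a mixture, fewer cells of a type and less RNA per cell cannot be told apart, and p-values measure only the spread between these arrays.

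**Figure D1:**
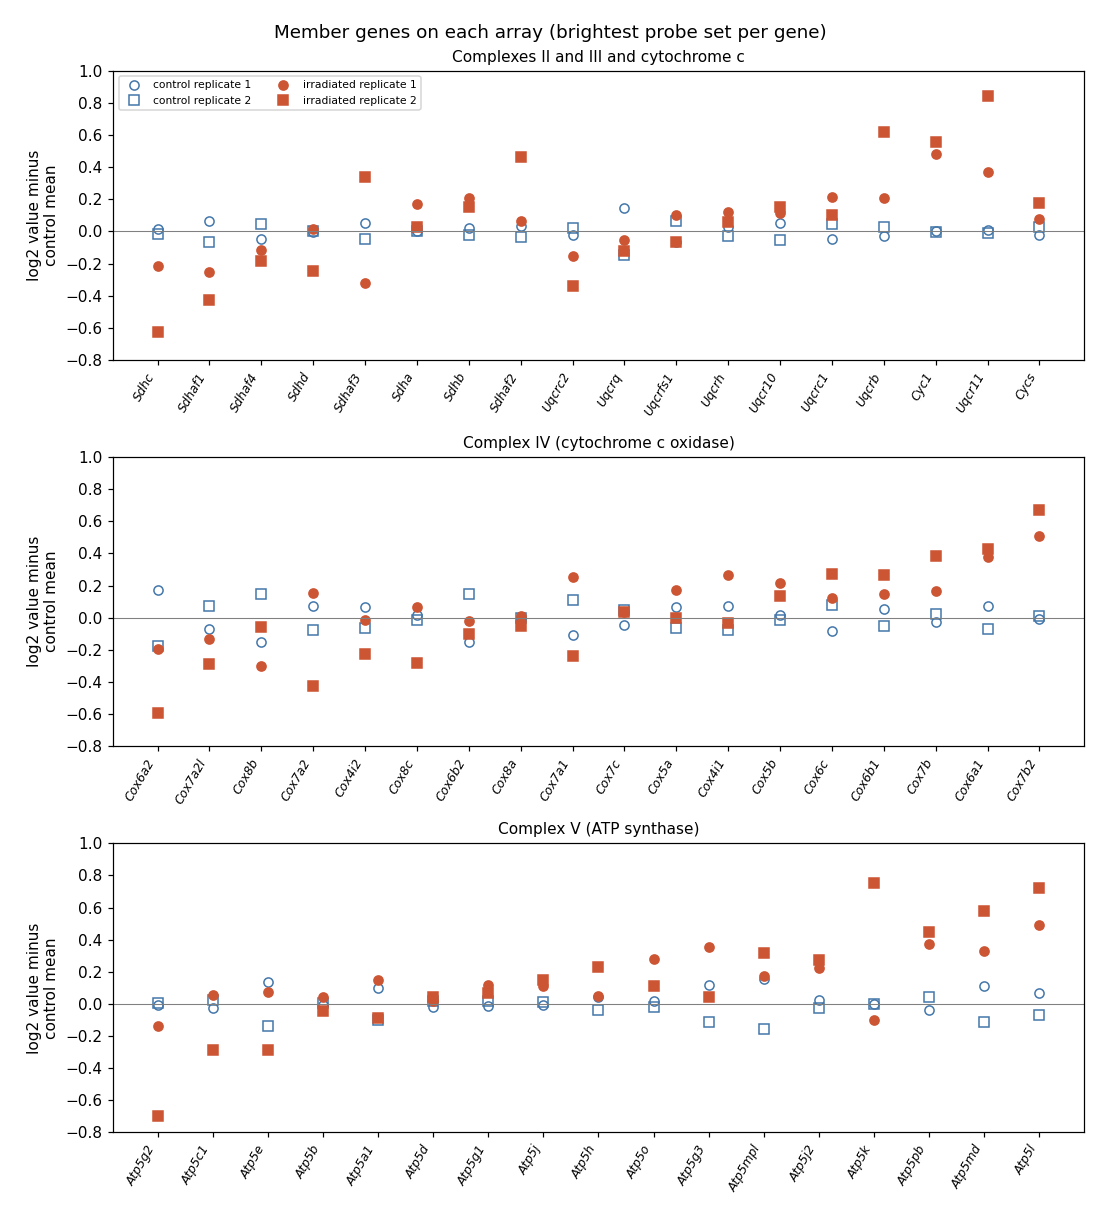
Log2 value minus the control mean (vertical axis) of the brightest probe set of each of the 53 member genes on each array, with open marks for control and filled marks for irradiated arrays, circles for replicate 1 and squares for replicate 2. Sdhc and Atp5g2 stand at the low end of complexes II and V, and Cyc1, Uqcr11, Cox7b2 and Atp5l lie above 0 on both irradiated arrays.

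The promoters of 6 members with higher, level or lower values are shown. Cox6a1, Uqcr11, Atp5l and Atp5md were among the genes higher at an unadjusted p under 0.05. Atp5b had a difference of 0.0, and Atp5g2 was lower on all of its probe sets. Sequences are from RefSeq, build GRCm38.p6, 300 bases around each gene's start, and read 5′ to 3′ on the strand of the gene. Capitals mark matches on either strand to GCATGCGC, the core letters of the site of NRF1, or to CCGGAAG, that of ETS factors such as GABP. Both are regulators known for binding promoters of respiratory genes. The higher genes shown all hold a match, so they do not stand for all higher members. Cyc1, Cox7b2, Atp5pb and Sdhc are not shown, and no match to either spelling was recorded for them. Not every member gene had a promoter to search.
Cox6a1: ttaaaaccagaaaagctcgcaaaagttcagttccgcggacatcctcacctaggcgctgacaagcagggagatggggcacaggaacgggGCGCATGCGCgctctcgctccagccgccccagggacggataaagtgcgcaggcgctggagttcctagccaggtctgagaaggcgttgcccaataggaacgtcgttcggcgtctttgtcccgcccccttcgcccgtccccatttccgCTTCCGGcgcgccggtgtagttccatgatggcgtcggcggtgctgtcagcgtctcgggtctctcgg
Uqcr11: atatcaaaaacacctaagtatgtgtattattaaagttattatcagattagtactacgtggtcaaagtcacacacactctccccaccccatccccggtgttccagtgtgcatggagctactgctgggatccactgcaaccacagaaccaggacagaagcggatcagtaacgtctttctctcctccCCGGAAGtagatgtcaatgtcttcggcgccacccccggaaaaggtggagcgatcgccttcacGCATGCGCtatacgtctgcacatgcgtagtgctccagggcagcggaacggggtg
Atp5l: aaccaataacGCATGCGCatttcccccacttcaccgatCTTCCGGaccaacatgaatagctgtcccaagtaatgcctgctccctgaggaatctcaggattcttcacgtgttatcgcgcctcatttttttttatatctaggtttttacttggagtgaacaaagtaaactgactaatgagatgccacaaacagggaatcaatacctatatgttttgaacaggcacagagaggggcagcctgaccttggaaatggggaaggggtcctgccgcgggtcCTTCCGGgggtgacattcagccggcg
Atp5md: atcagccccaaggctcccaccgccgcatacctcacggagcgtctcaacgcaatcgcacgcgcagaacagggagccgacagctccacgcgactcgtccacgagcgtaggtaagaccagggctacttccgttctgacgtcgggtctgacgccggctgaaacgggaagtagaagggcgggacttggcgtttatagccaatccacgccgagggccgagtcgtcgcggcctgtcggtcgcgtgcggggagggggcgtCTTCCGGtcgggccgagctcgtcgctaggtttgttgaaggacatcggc
Atp5b: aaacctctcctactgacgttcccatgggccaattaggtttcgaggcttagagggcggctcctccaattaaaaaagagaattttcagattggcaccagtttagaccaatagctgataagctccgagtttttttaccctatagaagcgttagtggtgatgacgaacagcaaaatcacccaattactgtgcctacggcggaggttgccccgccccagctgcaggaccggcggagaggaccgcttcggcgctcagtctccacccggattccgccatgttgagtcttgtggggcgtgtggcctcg
Atp5g2: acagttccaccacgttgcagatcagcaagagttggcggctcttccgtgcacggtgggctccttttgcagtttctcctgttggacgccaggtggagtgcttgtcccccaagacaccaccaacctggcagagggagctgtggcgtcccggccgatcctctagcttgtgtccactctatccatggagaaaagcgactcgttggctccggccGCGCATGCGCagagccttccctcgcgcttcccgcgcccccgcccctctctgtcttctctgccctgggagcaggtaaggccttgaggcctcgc
The Cox6a1 window is chr5:115348909-115349208, that of Uqcr11 chr10:80406772-80407071, that of Atp5l chr9:44920693-44920992, that of Atp5md chr19:47090598-47090897 and that of Atp5g2 chr15:102670998-102671297, all on the minus strand. The Atp5b window is chr10:128083057-128083356, on the plus strand. Overlapping matches share the same bases, since GCATGCGC can be read on both strands of a longer palindrome.

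The promoter table held 44 promoters of 41 member genes. GCATGCGC was found in 8 of the 44 (18.2%), against 2.71% of 32851 promoters in the table and 3.51% of those of protein-coding genes. CCGGAAG was found in 16 (36.4%), against 8.86% and 11.6%. AAGATGGC, letters of the YY1 site, was found in 3 (6.82%), against 2.75% and 3.05%. The 8 genes with GCATGCGC had a median difference of 0.25, and the 33 without it 0.085, while for CCGGAAG the medians were 0.16 and 0.085. Atp5g2, with GCATGCGC, was lower, so genes with these letters differed in direction. The spellings were chosen after several had been tried, and a match describes letters in this window only.

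Complex II showed no common direction. Its median difference was 0.01. On both irradiated arrays 4 of 9 probe sets (44.4%) lay above and 3 (33.3%) below, against 17.9% and 23.6% of all annotated probe sets. Sdha, the flavoprotein that oxidises succinate, read 11.01 and 11.01 in control and 11.18 and 11.04 in irradiated cells, a difference of 0.10 ± 0.116 (SE; limma adjusted p = 0.785). Sdhb, the iron-sulfur subunit, read 9.02 and 8.98 against 9.21 and 9.15, a difference of 0.18 ± 0.11 (limma adjusted p = 0.628). The groups did not overlap for either gene of the catalytic head, although the Sdha gap was small. The membrane anchors lay the other way. Sdhc read 10.4 and 10.37 in control and 10.17 and 9.76 in irradiated cells, a difference of -0.42 ± 0.167 (limma adjusted p = 0.531). Sdhd read 11.36 and 11.37 against 11.38 and 11.12, a difference of -0.115. Both irradiated arrays were low for Sdhc, whereas for Sdhd only irradiated replicate 2 was low.

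The assembly factors of complex II were also mixed. Sdhaf1, which helps to insert iron-sulfur clusters into Sdhb, read 8.58 and 8.45 in control and 8.26 and 8.09 in irradiated cells. Its difference was -0.34 ± 0.126 (limma adjusted p = 0.512), and it was the single lower member past the unadjusted threshold. Sdhaf2, needed for the flavin of Sdha, had a difference of 0.265, and Sdhaf3 of 0.01. Sdhaf4 had 2 probe sets of opposite direction, -0.15 on the brighter and 0.295 on the dimmer, which lay below the median of annotated probe sets.

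Complex III was higher at most of its subunits. The median difference of its 12 probe sets was 0.283. On both irradiated arrays 9 (75%) lay above and 1 (8.33%) below, against 17.9% and 23.6% of all annotated probe sets. At an unadjusted p under 0.05, 4 (33.3%) were higher, against 4.82%. Cyc1, the cytochrome c1 that reduces cytochrome c, read 11.25 and 11.24 in control and 11.73 and 11.80 in irradiated cells. The difference was 0.52 ± 0.11 (SE; 1.43-fold; unadjusted p = 0.00484, limma adjusted p = 0.421). The arrays of each group lay close together and far from those of the other group, and with any 1 array left out the difference stayed between 0.485 and 0.555. Uqcrfs1, the Rieske iron-sulfur protein, read 8.60 and 8.73 against 8.77 and 8.60, so the groups overlapped and the difference was 0.02. The core proteins diverged: Uqcrc1 read 11.50 and 11.59 against 11.76 and 11.65, a difference of 0.16, and Uqcrc2 read 12.30 and 12.34 against 12.17 and 11.98, a difference of -0.245 (limma adjusted p = 0.584). Neither overlapped between groups, and they lay in opposite directions.

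The 8 probe sets of small complex III subunits had a median of 0.41. Uqcr11 read 8.38 and 8.36 in control and 8.74 and 9.21 in irradiated cells on its brighter probe set, a difference of 0.605 ± 0.182 (limma adjusted p = 0.496). The other Uqcr11 probe set read 8.05 and 8.13 against 8.50 and 8.78, a difference of 0.55 ± 0.141 (limma adjusted p = 0.453). Irradiated replicate 2 was the higher on both, and the groups did not overlap. Uqcrb, which lies near the ubiquinone site, had 3 probe sets with differences of 0.405 to 0.455, and 1 of them read 11.69 and 11.71 against 11.97 and 12.34 (unadjusted p = 0.0337, limma adjusted p = 0.5). Uqcr10 had a difference of 0.135, Uqcrh, the hinge protein that helps cytochrome c to bind, of 0.09, and Uqcrq of -0.09. With the brightest probe set of each of these 5 genes, their median was 0.135, since Uqcrb and Uqcr11 supply 5 of the 8 probe sets.

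Cycs, cytochrome c itself, differed little. Its brightest probe set read 12.55 and 12.60 in control and 12.65 and 12.75 in irradiated cells, a difference of 0.125 ± 0.113 (limma adjusted p = 0.722). A second bright probe set gave 0.135, and a dim one, at 6.82 to 7.55, gave -0.02 with overlapping groups.

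Complex IV had a median difference of 0.03 over 24 probe sets, and a higher median at its ubiquitous subunits than at the isoforms of other tissues. The 15 probe sets of 10 ubiquitous subunits had a median of 0.175, with 13 (86.7%) higher. The 7 tissue isoforms had a median of -0.11, with 5 lower and 2 (28.6%) higher. Of these 7, 5 lay below the median of annotated probe sets. Among all annotated probe sets 44.5% were higher. The isoform median was -0.03 without control replicate 2, -0.225 without irradiated replicate 1 and -0.015 without irradiated replicate 2. With 1 probe set for each gene, the ubiquitous subunits had a median of 0.145, or 0.085 with irradiated replicate 1 left out. The contrast between these classes was not tested. Cox4i1, the regulatory subunit that starts assembly, read 10.94 and 10.79 in control and 11.13 and 10.83 in irradiated cells, a difference of 0.115. Cox5a read 10.87 and 10.74 against 10.98 and 10.80, a difference of 0.085. Both genes overlapped between groups. Cox5b, a zinc-binding subunit, read 12.41 and 12.38 against 12.61 and 12.53, a difference of 0.175 ± 0.111 (limma adjusted p = 0.639), and did not overlap.

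Cox6a1, the common form of subunit VIa, was the ubiquitous subunit of complex IV with the smallest p. It read 10.59 and 10.45 in control and 10.90 and 10.95 in irradiated cells, a difference of 0.405 ± 0.117 (1.32-fold; unadjusted p = 0.0174, limma adjusted p = 0.491). Both irradiated arrays were high, and the difference stayed between 0.335 and 0.475 with any 1 array left out. Its muscle form Cox6a2, near the median of annotated probe sets, read 7.01 and 6.66 against 6.64 and 6.24, a difference of -0.395 (limma adjusted p = 0.583). Cox6b1, which bridges the dimer, read 11.66 and 11.55 against 11.75 and 11.87, a difference of 0.205. Its testis form Cox6b2 was dim and overlapped, at 5.85 and 6.15 against 5.98 and 5.90. Cox7b read 13.02 and 13.07 against 13.21 and 13.43 on its brighter probe set, a difference of 0.275 ± 0.128 (limma adjusted p = 0.571), without overlap. Its other probe set read 11.93 and 11.85 against 11.92 and 12.28, a difference of 0.21 with overlapping groups.

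Cox7b2, the testis form of subunit VIIb, had the smallest p of all members. It read 7.51 and 7.53 in control and 8.03 and 8.19 in irradiated cells, a difference of 0.59 ± 0.119 (1.51-fold; 95% interval 0.287 to 0.893; unadjusted p = 0.00395, limma adjusted p = 0.405). Both irradiated arrays were high, and its unadjusted p stayed under 0.05 in all 4 fits that left out 1 array. Cox4i2, the lung form, read 6.31 and 6.18 against 6.23 and 6.02. Cox7a1, the heart and muscle form, read 9.28 and 9.50 against 9.64 and 9.15, and its ubiquitous partner Cox7a2 read 11.60 and 11.45 against 11.68 and 11.10. All 3 overlapped between groups, and in both Cox7a genes replicate 2 was the low irradiated array. Cox8a, the common form of subunit VIII, read 12.80 and 12.80 against 12.81 and 12.75, and the muscle form Cox8b read 5.70 and 6.0 against 5.55 and 5.79. Cox7c, whose probe sets are also annotated to Gm12338, had differences of 0.005 to 0.035.

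Complex V had 24 of 30 probe sets (80%) higher, against 44.5% of all annotated probe sets. Its median difference was 0.182, and its structural parts gave different medians. With 1 probe set for each gene these were 0.0 for F1, the catalytic head with its central stalk, and 0.09 for the c ring. They were 0.168 for the peripheral stalk and 0.325 for the small membrane subunits. Over all probe sets the c ring median was -0.145, since Atp5g2 supplies 3 of its 6. Differences between parts were not tested. The division into parts was made after the values were seen. The F1 part was level. Atp5b, the catalytic beta subunit, read 13.35 and 13.36 in control and 13.40 and 13.31 in irradiated cells, a difference of 0.0 (95% interval -0.283 to 0.283). Atp5a1, the alpha subunit, read 11.36 and 11.16 against 11.41 and 11.17, a difference of 0.03. Atp5c1, the central-stalk gamma subunit, read 12.28 and 12.33 against 12.36 and 12.02, a difference of -0.115. These groups overlapped, as did those of Atp5d and Atp5e, also of the central stalk, and the 5 F1 genes spanned -0.115 to 0.03.

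The small membrane subunits, which hold ATP synthase dimers together at the cristae, were the highest part of complex V. All 12 of their probe sets were higher, with a median of 0.525. At an unadjusted p under 0.05, 9 (75%) were higher, against 4.82% of all annotated probe sets. Of the 9, 6 were of Atp5l and 3 of Atp5md. With 1 probe set for each of the 5 genes the median was 0.325, and 2 genes were past that threshold. Atp5l, subunit g, read 9.33 and 9.19 in control and 9.75 and 9.98 in irradiated cells on its brightest probe set. The difference was 0.605 ± 0.136 (1.52-fold; unadjusted p = 0.00646, limma adjusted p = 0.442). Both irradiated arrays were high, and the 6 Atp5l probe sets agreed closely, at 0.59 to 0.61. They share a gene and are not separate evidence. Atp5md, a subunit of the dimer interface, read 11.55 and 11.35 against 11.80 and 12.02 on the probe set of smallest p, a difference of 0.46 ± 0.142 (limma adjusted p = 0.496), and its 3 probe sets gave 0.45 to 0.46. Atp5j2, subunit f, had a difference of 0.25 and Atp5mpl of 0.245, both without overlap. Atp5k, subunit e, read 8.08 and 8.08 against 7.98 and 8.83, so its difference of 0.325 rested on irradiated replicate 2. With irradiated replicate 1 left out the median of the 5 genes was 0.58, and with replicate 2 left out it was 0.225.

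The peripheral stalk, which keeps the head from turning with the rotor, was higher on all 7 probe sets, with a median of 0.14. Atp5pb, subunit b, read 10.29 and 10.37 in control and 10.70 and 10.78 in irradiated cells on its brighter probe set, a difference of 0.41 ± 0.113 (unadjusted p = 0.0145, limma adjusted p = 0.472). Its other probe set gave 0.17. Neither probe set overlapped between groups, but they differed in size. Atp5o, which joins the stalk to the head, had a difference of 0.195, Atp5j of 0.13 and Atp5h of 0.06 to 0.14.

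The 3 genes of subunit c, which encode the same mature ring protein, lay in different directions. Atp5g1 read 12.47 and 12.50 in control and 12.60 and 12.55 in irradiated cells, a difference of 0.09 ± 0.109 (limma adjusted p = 0.795). Atp5g2 read 12.91 and 12.92 against 12.78 and 12.22, a difference of -0.415 ± 0.205 (limma adjusted p = 0.578). Atp5g3 read 11.82 and 11.59 against 12.06 and 11.75, a difference of 0.20 ± 0.162 (limma adjusted p = 0.697). Atp5g2 was low on both irradiated arrays and lowest on replicate 2, and its 3 probe sets gave -0.42 to -0.38. Atp5g3 overlapped between groups. Differences between the 3 genes were not tested.

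**Figure D2:**
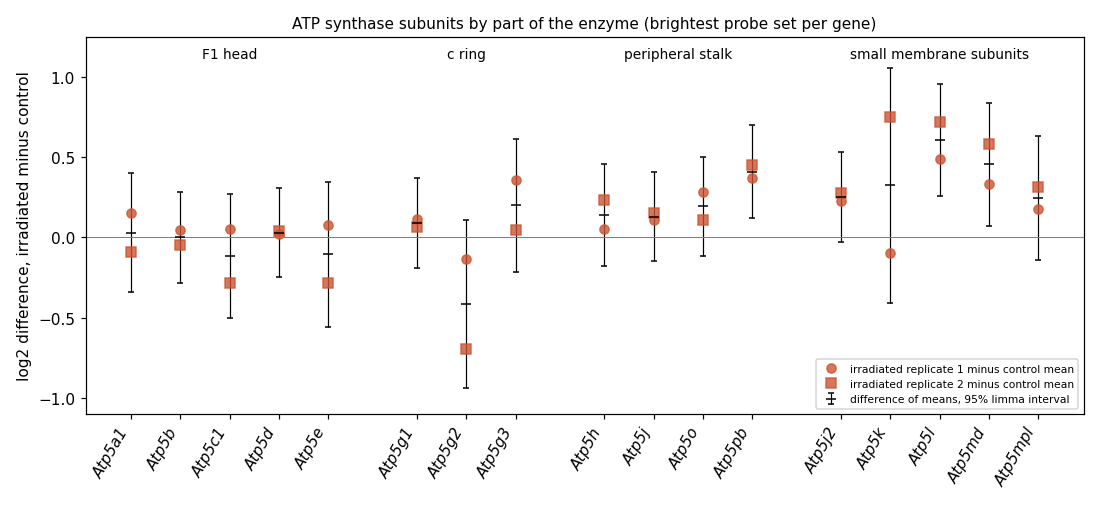
Log2 difference, irradiated minus control, of the brightest probe set of each ATP synthase gene by structural part, with dashes for the difference of means, bars for its 95% limma interval, and a circle and a square for irradiated replicates 1 and 2. The 5 F1 genes (head and central stalk) lie between -0.115 and 0.03, the 5 genes of small membrane subunits between 0.245 and 0.605, and Atp5g2 at -0.415.

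Of the 53 genes, 38 had 1 probe set and 15 had several, and for 13 of those 15 all probe sets lay in the same direction. The exceptions were Sdhaf4 and Cycs, each with a dim probe set that opposed a brighter one. In fits that left out 1 array in turn, 56 of the 78 members kept their direction in all 4, 45 of them higher and 11 lower. Members whose groups did not overlap, 41 above and 9 below, keep their direction in such fits by construction. The count is therefore not separate evidence, and its share over all annotated probe sets is not given.

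**Figure D3:**
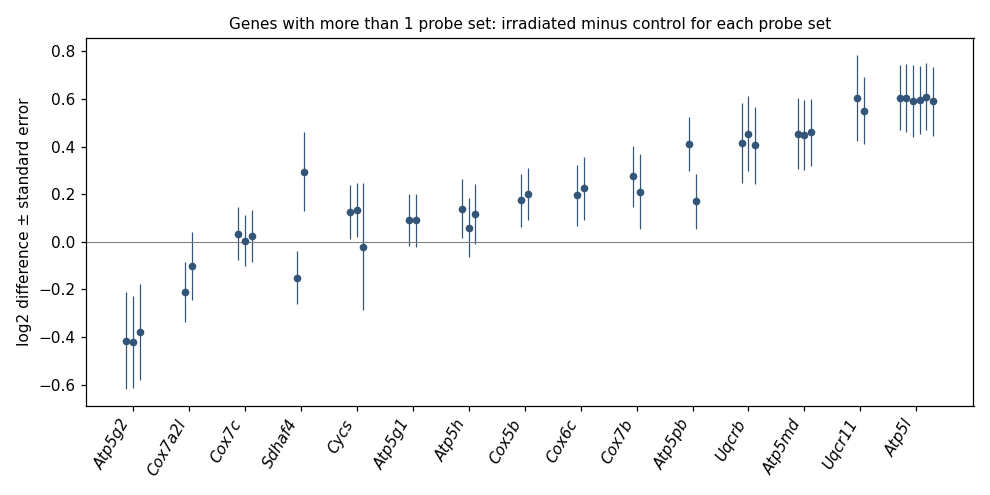
Log2 difference, irradiated minus control, of each probe set (points, with bars for the standard error) for the 15 genes with several probe sets. Probe sets of Atp5l lie between 0.59 and 0.61, and those of Sdhaf4 on both sides of 0.

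Side by side, the complex medians were 0.01 for complex II, 0.283 for III, 0.125 for cytochrome c, 0.03 for IV and 0.182 for V. The SDs of the complex median between replicates of a group, pooled over both groups, were 0.021, 0.073, 0.066, 0.051 and 0.058 in the same order. Relative to the control mean, complex III stood at 0.212 and 0.355 on irradiated replicates 1 and 2, complex V at 0.138 and 0.215, complex IV at 0.09 and -0.01 and complex II at 0.015 and 0.03. Both irradiated arrays were thus above control for complexes III and V, while complex IV with all its members was above on 1 array. Without the tissue isoforms and assembly factors, complex IV stood at 0.145 and 0.135, above control on both. With 1 probe set for each gene, the medians were -0.053 for complex II, 0.135 for III, 0.125 for cytochrome c, 0.005 for IV and 0.14 for V. Differences between complexes were not tested.

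**Figure D4:**
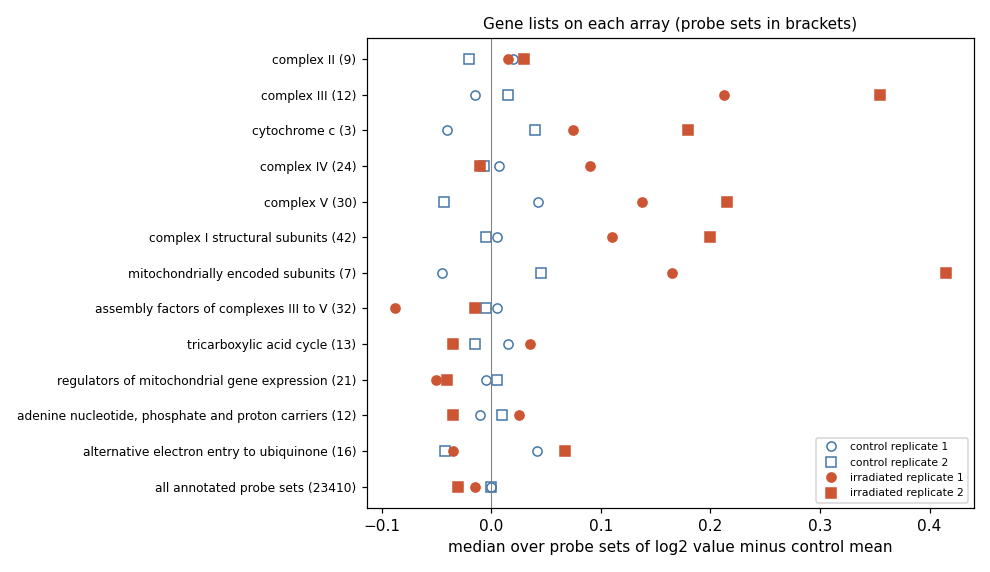
Median over probe sets of the log2 value minus the control mean, on each array, for the complexes, related gene lists and all annotated probe sets, with open marks for control and filled marks for irradiated arrays. Complex III stands at 0.212 and 0.355 on the irradiated arrays, and complex IV at 0.09 and -0.01.

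Genes of related function gave a background for these values. Complex I, which takes electrons from NADH, had a median of 0.13 over 42 probe sets of 35 genes. Of these, 34 (81%) were higher, against 44.5% of all annotated probe sets. At an unadjusted p under 0.05, 4 (9.52%) were higher. The share was 4.82% of all annotated probe sets and 7.12% of those at or above the median. Among the 4 were Ndufs4 at 0.495 and a probe set annotated to Ndufs5 and Ndufs5-ps at 0.415. The probe set annotated to Ndufs5 alone had 0.03. Without irradiated replicate 1 the complex I median was 0.2. Subunits encoded in mitochondrial DNA had a median of 0.28 over 7 probe sets of 4 genes. Of the 7, 2 (28.6%), both of ND3, were higher at an unadjusted p under 0.05. That median was 0.415 with irradiated replicate 1 left out and 0.165 with replicate 2 left out. Assembly factors of complexes III to V, at 32 probe sets, had a median of -0.065 and none past that threshold in either direction. Ttc19, a complex III factor, had -0.285, and Lrpprc, which stabilises mitochondrial transcripts, 0.285.

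Other lists lay near the median of all probe sets. The tricarboxylic acid cycle had a median of -0.045 over 13 probe sets, with Ogdh higher at 0.54 as the 1 past the unadjusted threshold, and Idh3b at -0.245. Regulators of mitochondrial gene expression had a median of -0.045 over 21 probe sets, with 8 higher and 13 lower. The 2 past the unadjusted threshold were lower, Ppargc1b at -0.355 and Twnk, the mitochondrial helicase, at -0.315. The largest differences were those of the 2 Ppargc1a probe sets, higher at 0.585 and 0.75. Both were dim, at 4.39 to 5.95, and not past the threshold. Carriers of adenine nucleotides and phosphate were listed with the outer-membrane pores Vdac1, Vdac2 and Vdac3 and the ATP synthase inhibitor Atpif1. They had a median of -0.01 over 12 probe sets and none past the threshold. A list of other genes that pass electrons to ubiquinone or act in its synthesis had a median of 0.01 over 16 probe sets. Coq3, a synthesis gene, was lower at -0.345. No probe set of these lists passed a limma adjusted p of 0.05. At the unadjusted threshold, 4.82% of all annotated probe sets were higher and 4.64% lower.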

How the data were processed

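The authors deposited log2 expression values for 35556 probe sets on 4 arrays, made with RMA per the submitters' processing notes, from 300 ng of labelled RNA per the labels' protocols. Its version, the genome build and the annotation were not stated in the labels or processing notes. RMA subtracts background, equalises array distributions and summarises probes, which compresses low values. Of the probe sets, 23410 had a gene symbol in the platform annotation (21789 with 1 symbol, 1621 with several) and 12146 were unnamed. All 23410 were fitted with limma 3.58.1 in R 4.3.3 (2 residual and 3.11 prior degrees of freedom), tested on simulated data, with Benjamini-Hochberg adjustment over all of them. A difference is irradiated minus control. Array number limits the precision. Values on every array are given for up to 4 probe sets of smallest p in each complex, for core subunits and for isoform pairs, and for a few further members chosen after their values were seen. Members and lists were chosen with earlier results of these data known. Alternatives were other filters, normalizations, gene summaries and limma options, a replicate block, and leaving out each array.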

Additional observations from a re-analysis of the deposited data

How the results depend on the processing

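With 2 arrays per group, single arrays moved most counts, and counts with 1 array left out are not given. The 6 adjusted calls over all probe sets became 0 with every row of the table. They became 1 with the brightest probe set per gene and 1 with the gene mean over probe sets. With the replicate number as a block they became 0, and 14 members were higher and 2 lower at an unadjusted p under 0.05. Same-numbered arrays had a correlation of deviations of 0.0042. With 2 arrays per group this cannot decide whether the numbers pair the samples, and the labels do not say. Members higher at an unadjusted p under 0.05, 16 in all, were 7 with the brightest probe set (13.5%, against 5.21% of all genes). They were 8 with the gene mean. Members lower, 1 in all, were 2 under either filter, the brightest probe set, the gene mean and the trend option, 0 when centred or with every row, and 0 to 10 with an array left out. Members above on both arrays, 41 in all, were 25 and 23 in the 2 gene summaries. Where no share over all features of the same fit is given, a count cannot be read as a result about the members. The complex II median became -0.053 with the median filter or brightest probe set, 0.035 when centred, 0.041 with the gene mean, and -0.04 to 0.06 with an array left out. The complex III median was 0.135 in both gene summaries and 0.212 to 0.355 with an array left out. The cytochrome c median was 0.231 after quantile normalization and 0.075 to 0.18 with an array left out. The complex IV median was 0.175 over structural subunits, 0.085 over probe sets of 1 symbol, 0.115 with the median filter, and -0.01 to 0.09 with an array left out. The complex V median was 0.12 to 0.215 with an array left out. Of 38 named probe sets, 28 were never reversed, among them Atp5b, which had no direction (0.0, and -0.045 to 0.045 with an array left out). Where groups did not overlap, leaving out an array could not reverse the direction. Cox7a1 became -0.018 and Cox8a 0.111 after quantile normalization, and Cox8a 0.005 when centred. With an array left out, Uqcrfs1 ran from -0.065 to 0.105, Cox7a1 from -0.24 to 0.25, Atp5a1 from -0.09 to 0.15, Cox4i1 from -0.035 to 0.265, Cox5a from -0.005 to 0.175, Cox6b2 from -0.21 to 0.09, Sdhd from -0.245 to 0.015, Atp5c1 from -0.285 to 0.055, Cox7a2 from -0.425 to 0.155 and Cox8a from -0.05 to 0.01. Except where an alternative tests fewer features or arrays, the cause was not tested.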
